A study of Homo sapiens with 9 samples.

Results

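The cytosolic ribosomal protein genes were followed in a mesenchymal-like, triple-negative human breast cancer line, MDA-MB-231, grown as 3 stably transduced cultures. A gene was taken when the only symbol of its transcript cluster (the set of probes that the array assigns to a transcript locus, here called a row) was that of a protein of the large (60S) or small (40S) cytosolic ribosomal subunit. This gave 55 genes of the 22465 genes that have a row with a single symbol, 33 of the 60S and 22 of the 40S subunit. Of the 55, 7 were paralogs, which are further gene copies that code for a protein related to a core protein: *RPL3L*, *RPL7L1*, *RPL10L*, *RPL22L1*, *RPL26L1*, *RPL39L* and *RPS27L*. They were taken by their symbols, and whether each one's protein enters ribosomes was not tested. A further 21 ribosomal protein genes stand only on rows that also name other genes, mostly small nucleolar RNAs in their introns, and were not analysed here. For *RPS18* and *RPL30*, which have several rows, the row with the highest mean over the 9 arrays was used, and the other 53 genes have 1 row each.

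Each culture carried a shRNA in the lentiviral vector pLVX shRNA1 and was selected with puromycin. The control culture, MDA-MB-231 (LUC), expressed a shRNA against firefly luciferase, which human cells lack. The other cultures expressed a shRNA against *ELOVL5*, an elongase of polyunsaturated fatty acids, or against *IGFBP6*, a binding protein for insulin-like growth factors that cells secrete. Per the methods of the study, 2 cultures were made for each target gene and the one with the strongest decrease was kept, so each knockdown is 1 culture. From each culture 3 RNA samples were hybridised to 3 Affymetrix Human Transcriptome Arrays. Every p-value therefore measures only the spread between RNA samples within a culture, not that between independently made cultures. In limma the 3 cultures share 1 estimate of this spread for each row, drawn towards that of the other rows. Values are log2 intensities, and a change is a difference of log2 means. A gene rose or fell when its p-value from limma, adjusted by the Benjamini-Hochberg method over all 67528 rows, was under 0.05.

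Ribosomal proteins coat the ribosomal RNA of both subunits, and one copy of nearly every one of them is needed per ribosome. Their mRNAs are among the most abundant in dividing cells, and most start with a 5′ terminal oligopyrimidine tract (5′ TOP), a C followed by a short run of C and T, through which mTOR signalling controls their translation as a group. Paralogs such as *RPL22L1* or *RPS27L* can take the place of the core protein in the ribosome.

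The *ELOVL5* row read 11.25, 11.26 and 11.36 in control cells and 9.66, 9.67 and 9.57 in the *ELOVL5* culture (change −1.66, adjusted p = 8.71e-05, limma). The *IGFBP6* row read 6.13, 6.21 and 6.03 in control cells and 5.65, 5.30 and 5.56 in the *IGFBP6* culture (−0.62, adjusted p = 0.00183, limma). Each target was thus lower in every array of its own knockdown than in any control array. The *IGFBP6* row lay not far above the median of all values, 5.02, which limits what its change shows. *ELOVL5* rose by 0.39 in the *IGFBP6* culture (adjusted p = 0.0412, limma), a call lost without any one of 8 arrays. *IGFBP6* was lower in every *ELOVL5* array than in any control array, but its change of −0.11 did not pass (adjusted p = 0.791, limma). The group means of all 7 markers of the line lay between 12.08 and 15.36. Several of them differed from control in the *IGFBP6* culture, where *KRT8* (−1.06), *CAV1* (−0.88), *CD44* (−0.67) and *AXL* (−0.62) fell, *EGFR* (0.80) and *VIM* (0.31) rose and *KRT18* did not pass the test (limma). Of 4 markers of luminal breast cells, *FOXA1* rose by 2.38 in the *IGFBP6* culture and by 0.75 in the *ELOVL5* culture, *GATA3* fell by 0.76 on the log2 scale in the *IGFBP6* culture, and *ESR1* and *PGR* lay between 4.05 and 4.70 in all group means. Of 14 markers of T, B, myeloid, endothelial and erythroid cells, 13 had group means between 3.58 and 5.41, and the endothelial *KDR* rose from 6.01 to 6.64 in the *IGFBP6* culture. The part of these shifts in the results on ribosomal protein genes was not tested. The summed level of those 14 markers was 63.01 to 64.10 in control cells, 62.89 to 63.57 in the *ELOVL5* culture and 62.24 to 64.86 in the *IGFBP6* culture. These ranges overlapped, but 13 of the 14 markers lay near or below the median of all values. The sum therefore says little about other cells. In RNA from a whole culture, fewer cells of a kind and less RNA per cell cannot be told apart.

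The annotated start sites of some of these genes are shown because the start is where the 5′ TOP lies. A RefSeq promoter entry (build GRCh38.p14) was found for 48 of the 55 genes, and in 35 of these (72.9%) the annotated start base was a C within a run of at least 5 C or T, against 9.14% of the 27305 genes in the same promoter table. Each line below gives the 10 bases before the start and the 20 bases from the start on, 5′ to 3′ on the strand of the gene. Capitals mark the run of at least 5 C or T around the start base, and a sequence without capitals has no such run.
RPL37A (chr2:216498834-216498863, plus strand): gcgTCTCTTCCTTTCTgggctcggacctag
RPL41 (chr12:56116623-56116652, plus strand): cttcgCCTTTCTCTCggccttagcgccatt
RPS14 (chr5:150449720-150449749, minus strand): ccctcccaCTCTCTCTTTCCggtgtggagt
RPL22L1 (chr3:170870176-170870205, minus strand): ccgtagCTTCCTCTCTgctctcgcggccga
RPL22 (chr1:6199576-6199605, minus strand): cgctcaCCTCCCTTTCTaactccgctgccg
RPS27 (chr1:153990752-153990781, plus strand): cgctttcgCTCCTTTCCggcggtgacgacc
RPS27L (chr15:63157458-63157487, minus strand): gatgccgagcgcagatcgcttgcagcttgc
RPL27 (chr17:42998409-42998438, plus strand): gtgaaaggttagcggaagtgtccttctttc
RPS28 (chr19:8321486-8321515, plus strand): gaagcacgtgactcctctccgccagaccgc
RPS16 (chr19:39435930-39435959, minus strand): ccctagCTTTCCTTTTCCggttgcggcgcc
The first 3 and *RPL27* are core genes that rose after knockdown of *IGFBP6*, with the largest rises of the 60S (*RPL37A*, *RPL41* and *RPL27*) and of the 40S subunit (*RPS14*), *RPS28* and *RPS16* fell, and the remaining 4 make up the 2 paralog pairs that moved most unequally. In *RPL27* and *RPS28* a run of C and T lies downstream of the annotated base, so the window holds such letters but not at the start itself. An annotated start need not be the start used in these cells.

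After knockdown of *IGFBP6* the ribosomal protein mRNAs did not move as a block. Against control cells 20 of the 55 rose (36.4%), 4 fell (7.27%) and 31 did not pass the test. Over all rows 8.85% rose and 8.6% fell, and among the 11665 rows with a mean log2 intensity of at least 8, a level reached by 48 of the 55 genes, 21.2% rose and 22.9% fell. The rises were moderate, from 1.27 to 2.51 times, and 10 genes rose by at least 1.5 times (18.2%, against 5.55% of all rows and 13.9% of the rows with a mean of at least 8) while 1 fell by as much (1.82%, against 5.37% and 15.8%). The median change of the 55 genes was 0.21, that of all rows −0.003. In each of the 24 genes that passed, no *IGFBP6* array overlapped the control arrays. Counting every gene whose arrays did not overlap, whatever its p-value, 26 were higher (47.3%, against 13.7% of all rows and 26.7% of the rows with a mean of at least 8) and 7 lower (12.7%, against 13.9% and 28.6%).

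**Figure D1:**
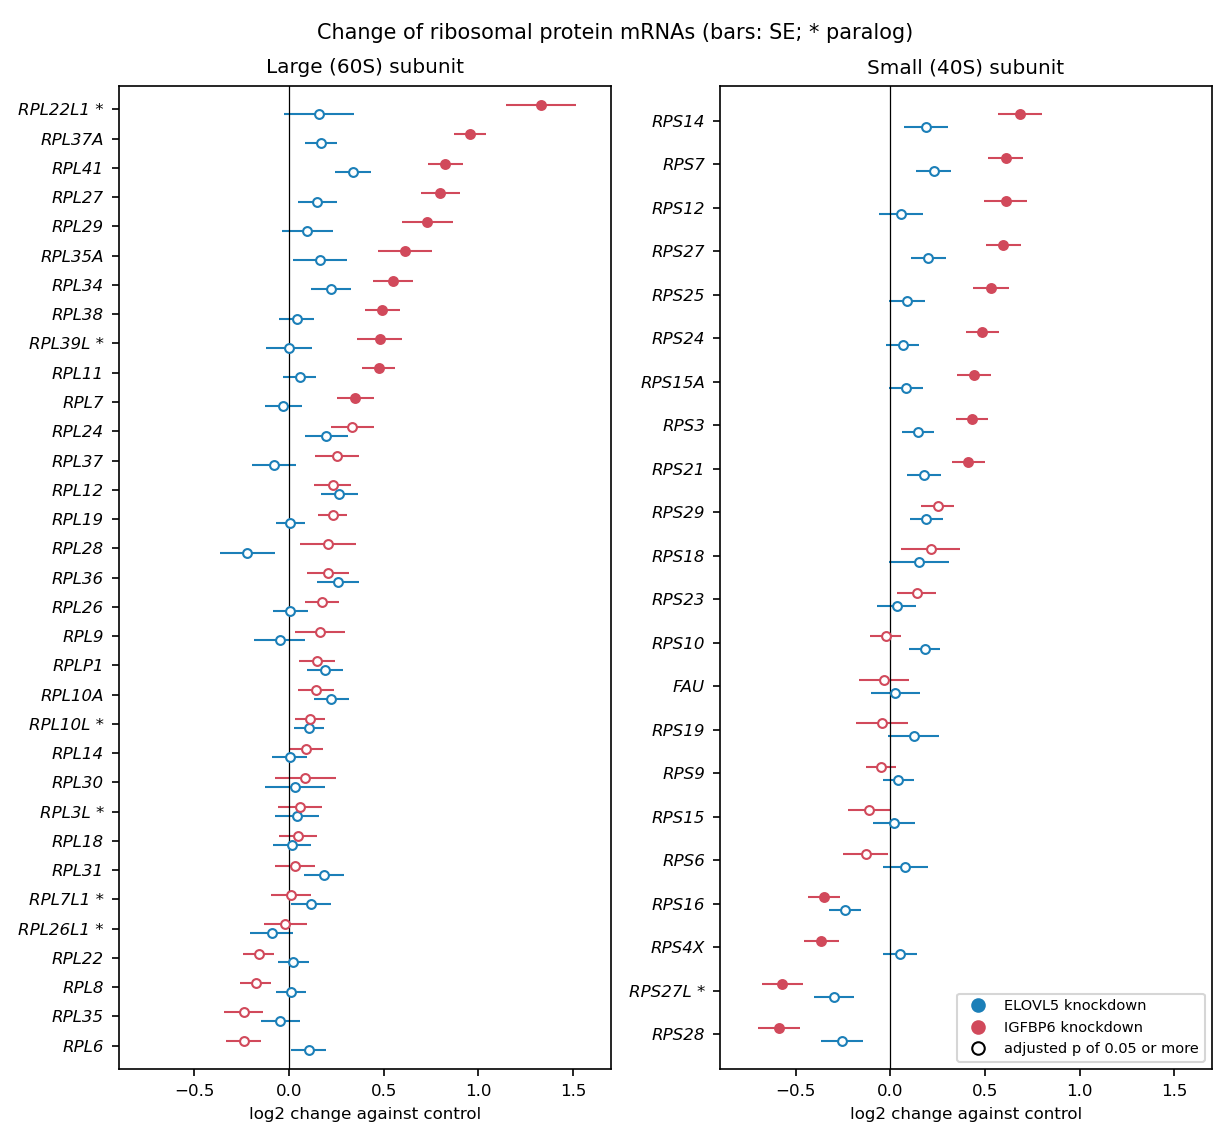
Change of the log2 intensity of each of the 55 ribosomal protein genes against control cells, with 60S genes on the left and 40S genes on the right, ordered by the change after knockdown of *IGFBP6*. Points are fitted changes with 1 standard error (n = 3 arrays per group), filled where the adjusted p was under 0.05. After knockdown of *IGFBP6* 20 points are filled to the right of zero and 4 to the left, and no point is filled after knockdown of *ELOVL5*.

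Genes of both subunits were among those that rose. Of the 27 core 60S genes 9 rose and none fell (median change 0.21), and of the 21 core 40S genes 9 rose and 3 fell (median change 0.21). Of the 7 paralogs 2 rose and 1 fell (median change 0.06). Over all rows 8.85% rose and 8.6% fell, and 21.2% and 22.9% of the rows with a mean of at least 8. The paralogs are too few to be told from these shares.

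Among the core 60S genes, *RPL37A*, which codes for a zinc-binding protein, changed most. Its intensity was 6.65, 6.67 and 6.74 in control cells, 6.91, 6.87 and 6.79 in the *ELOVL5* culture and 7.63, 7.75 and 7.55 in the *IGFBP6* culture. All 3 *IGFBP6* arrays lay above the 6 others (change against control 0.96 ± 0.09, SE, 1.94 times, adjusted p = 2.95e-05, limma). *RPL41*, which codes for one of the shortest human proteins, had intensities of 11.21, 11.01 and 11.15 in control cells, 11.37, 11.50 and 11.52 in the *ELOVL5* culture and 11.96, 12.05 and 11.84 in the *IGFBP6* culture. The 3 groups formed 3 separate steps, and the rise against control after knockdown of *IGFBP6* was 0.83 ± 0.10 (SE, adjusted p = 1.56e-04, limma).

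*RPL27*, a protein of the 60S surface mutated in some patients with Diamond-Blackfan anaemia, had intensities of 11.32, 11.07 and 11.27 in control cells and 12.15, 12.02 and 11.89 in the *IGFBP6* culture. *RPL29*, also known as a heparin-binding protein, had 12.04, 11.95 and 12.26 in control cells and 12.77, 13.06 and 12.61 in the *IGFBP6* culture. Both rose without overlap, *RPL27* by 0.80 ± 0.10 (SE, adjusted p = 3.25e-04, limma) and *RPL29* by 0.73 ± 0.14 (SE, adjusted p = 0.00342, limma). *RPL35A*, another Diamond-Blackfan gene, rose by 0.61 and *RPL34* by 0.55. *RPL38*, known in mice for its part in the translation of Hox mRNAs, rose by 0.49, and *RPL11*, which binds MDM2 when ribosome assembly is disturbed, by 0.47. The smallest rise was that of *RPL7*, 0.35 (adjusted p = 0.031, limma), which lost its call without any one of LUC replicates 1, 2 and 3, *IGFBP6* replicates 1 and 2 and *ELOVL5* replicate 3 (adjusted p of 0.0518 to 0.102, limma). *RPL35A* lost its call without LUC replicate 2 (adjusted p = 0.0505, limma).

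The other 18 core 60S genes did not pass the test. *RPL6* had intensities of 13.60, 13.41 and 13.52 in control cells and 13.29, 13.39 and 13.13 in the *IGFBP6* culture. These arrays did not overlap, and the change was −0.24 (adjusted p = 0.125, limma). For *RPLP1*, a protein of the flexible stalk that recruits translation factors, the change was 0.15 (adjusted p = 0.389, limma). The brightest genes include *RPL19* and *RPL26*, which with *RPS15* and *RPS16* exceeded a log2 intensity of 16 on some array, the highest value of a 16-bit scanner, so the size of their changes depends on how the authors processed the signal.

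Among the core 40S genes the rise was led by *RPS14*, the gene whose loss of one copy is known from the 5q− syndrome. Its intensity was 7.92, 7.67 and 8.05 in control cells, 8.15, 8.10 and 7.96 in the *ELOVL5* culture and 8.56, 8.69 and 8.45 in the *IGFBP6* culture. The *IGFBP6* arrays lay above all 6 others, and the rise against control was 0.69 ± 0.12 (SE, 1.61 times, adjusted p = 0.00193, limma). *RPS12* rose by 0.61 (adjusted p = 0.00381, limma), as did *RPS7*, another Diamond-Blackfan gene (0.61, adjusted p = 9.27e-04, limma). *RPS27*, a zinc-finger protein, rose by 0.60, *RPS25*, which viral internal ribosome entry sites need, by 0.53, and *RPS24* by 0.49. *RPS15A* rose by 0.44, *RPS3*, which lies at the mRNA entry channel, by 0.43 and *RPS21* by 0.41.

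The 3 core genes that fell were all of the 40S subunit. *RPS28*, which lies near the mRNA exit channel, had intensities of 15.87, 15.62 and 15.86 in control cells, 15.64, 15.52 and 15.43 in the *ELOVL5* culture and 15.07, 15.36 and 15.16 in the *IGFBP6* culture. The *IGFBP6* arrays were below all others, with a change of −0.59 ± 0.11 (SE, adjusted p = 0.00393, limma). *RPS4X*, coded on the X chromosome, had 12.37, 12.17 and 12.28 in control cells and 11.92, 11.98 and 11.83 in the *IGFBP6* culture (change −0.36, adjusted p = 0.0181, limma). *RPS16*, whose tail reaches the tRNA in the decoding centre, had 16.32, 16.27 and 16.32 in control cells and 15.89, 16.07 and 15.90 in the *IGFBP6* culture (change −0.35, adjusted p = 0.0155, limma). The groups did not overlap in either gene, but both lost the call without *IGFBP6* replicate 3 or LUC replicate 1, and *RPS4X* also without LUC replicate 3 (adjusted p of 0.0512 to 0.0574 for *RPS16* and 0.0517 to 0.0726 for *RPS4X*, limma). *RPS6*, the substrate of the S6 kinases, did not pass the test (−0.13, adjusted p = 0.577, limma).

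Across the arrays, the shift of the 55 genes rested in part on single RNA samples. The median difference of the 55 genes from the control mean was 0.15, 0.32 and 0.14 on the 3 *IGFBP6* arrays, 0.07, 0.10 and 0.04 on the *ELOVL5* arrays and 0.02, −0.10 and 0.09 on the LUC arrays. LUC replicate 2 stood low, with 5 of the 55 genes above the control mean against 33 and 49 for the other LUC arrays, while *IGFBP6* replicate 2 stood high with 45. Without LUC replicate 2 the median change after knockdown of *IGFBP6* was 0.11 and 17 genes rose, and without *IGFBP6* replicate 2 it was 0.145 and 18 genes rose. The median of all rows on LUC replicate 2 differed from the control mean by −0.01.

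**Figure D2:**
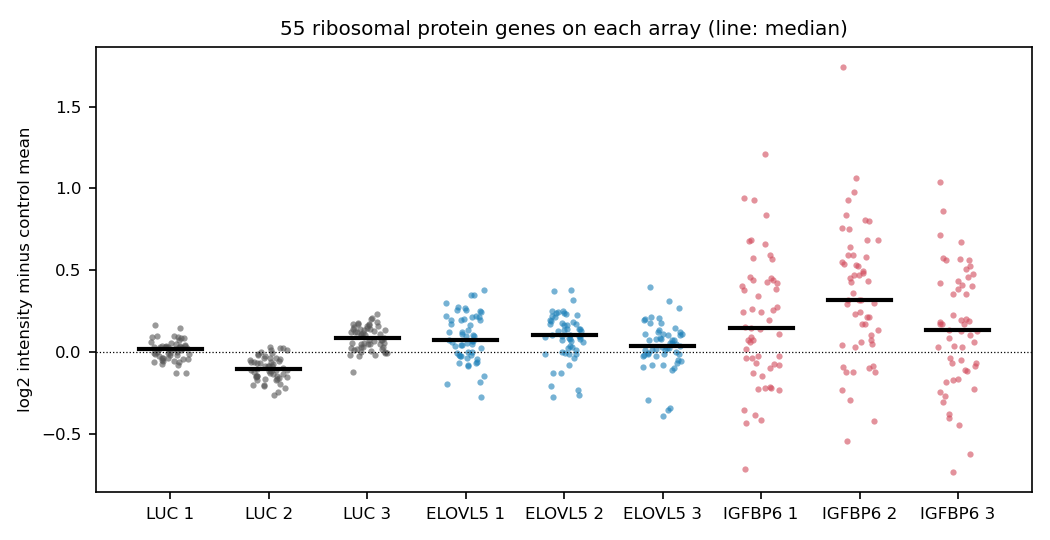
Difference of the log2 intensity of each of the 55 ribosomal protein genes from its mean over the 3 LUC arrays, 1 column of points per array, with the median as a line. The medians of the *IGFBP6* arrays lie at 0.15, 0.32 and 0.14 and their points spread over a wider range than those of the other arrays, and LUC replicate 2 lies at −0.10.

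Paralogs were compared with the core genes from which they derive, called parents here. *RPL22L1* had intensities of 7.17, 6.96 and 7.41 in control cells, 7.53, 7.32 and 7.17 in the *ELOVL5* culture and 8.39, 8.92 and 8.22 in the *IGFBP6* culture. This was the largest rise among the 55 genes in the comparison of the *IGFBP6* culture with control cells, 1.33 ± 0.18 (SE, 2.51 times, adjusted p = 5.49e-04, limma). Its parent *RPL22*, which like *RPL22L1* binds RNA outside the ribosome, had 10.65, 10.53 and 10.66 in control cells and 10.40, 10.52 and 10.44 in the *IGFBP6* culture. Those *RPL22* arrays were lower without overlap, but the change of −0.16 did not pass the test (adjusted p = 0.256, limma).

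*RPS27L*, known in human cells as a target of p53, went the other way from its parent. Its intensities were 7.19, 6.98 and 6.90 in control cells, 6.75, 6.75 and 6.68 in the *ELOVL5* culture and 6.59, 6.48 and 6.29 in the *IGFBP6* culture. It fell after knockdown of *IGFBP6* by 0.57 on the log2 scale (adjusted p = 0.00382, limma), while *RPS27*, with 11.67, 11.60 and 11.63 in control cells and 12.21, 12.39 and 12.09 in the *IGFBP6* culture, rose by 0.60 (adjusted p = 0.00111, limma). Both groups of knockdown arrays lay below the control arrays for *RPS27L*, and the change of −0.30 after knockdown of *ELOVL5* did not pass the test (adjusted p = 0.305, limma).

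Taken as the change of the paralog minus that of its parent, the difference after knockdown of *IGFBP6* was 1.49 for *RPL22L1* and *RPL22*, −1.17 for *RPS27L* and *RPS27*, −0.34 for *RPL7L1* and *RPL7*, and −0.19 for *RPL26L1* and *RPL26*. In the first 3 pairs all 3 *IGFBP6* arrays lay outside the range of the control arrays. The exact two-sided permutation test over arrays gave p = 0.1 for each of these 3 pairs, which is the smallest p that 3 against 3 arrays can give, and p = 0.2 for the fourth. After knockdown of *ELOVL5* the differences were 0.14, −0.50, 0.15 and −0.10, with exact permutation p of 0.4, 0.1, 0.3 and 0.4. Adjusted over these 8 tests, all p-values lay between 0.2 and 0.4.

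**Figure D3:**
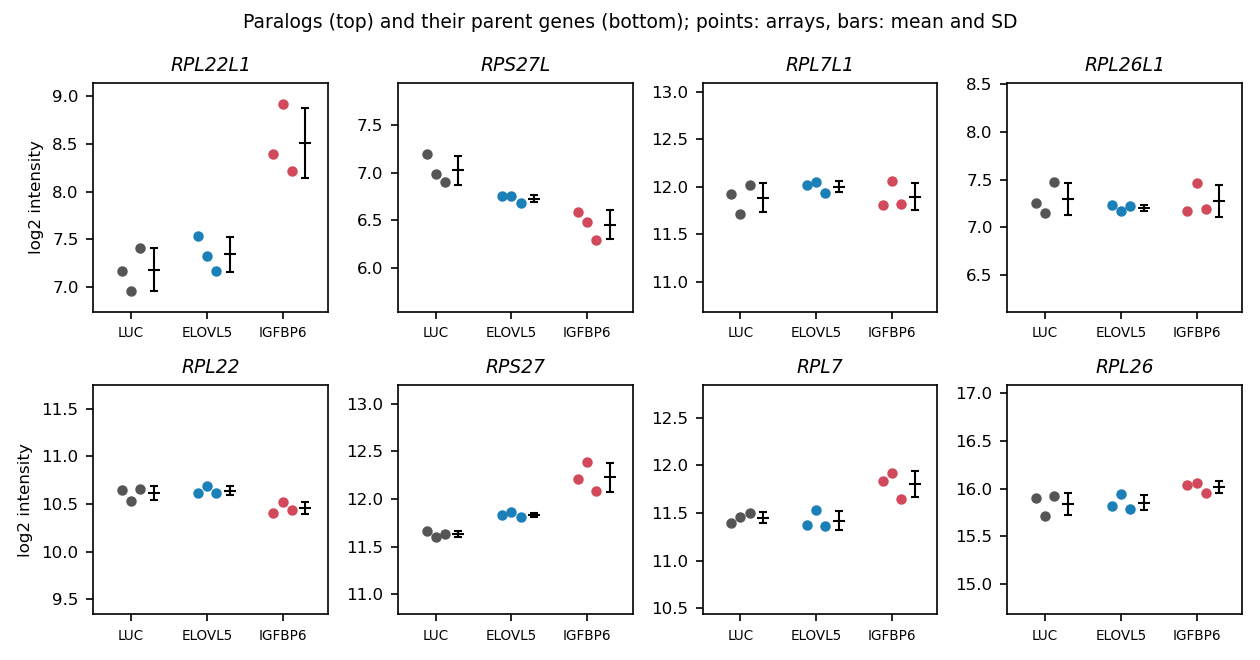
Log2 intensity on each array for 4 paralogs (top) and their parent genes (bottom) in control (LUC), *ELOVL5* and *IGFBP6* cultures; points are arrays, and bars are mean and SD (n = 3). All panels span the same number of log2 units. *RPL22L1* rises and *RPS27L* falls in the *IGFBP6* culture, where their parents change by −0.16 and 0.60.

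Of the remaining paralogs, *RPL39L*, which is enriched in the testis, had 6.66, 6.65 and 6.83 in control cells and 6.96, 7.40 and 7.22 in the *IGFBP6* culture. It rose by 0.48 (adjusted p = 0.0181, limma), a call that was lost without any one of *IGFBP6* replicates 2 and 3 and LUC replicates 1 and 2 (adjusted p of 0.0558 to 0.0662, limma). *RPL3L*, known from heart and skeletal muscle, and *RPL10L*, known from the testis, had mean intensities under the median of all values, 5.02, and changed by 0.06 and 0.11 (adjusted p = 0.842 and 0.451, limma). The parents *RPL3*, *RPL10* and *RPL39* have no row with a single symbol and were not analysed here.

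After knockdown of *ELOVL5* no ribosomal protein gene rose or fell in the limma fit, where 0.644% of all rows rose and 0.538% fell (1.34% and 1.5% of the rows with a mean of at least 8). At an unadjusted p under 0.05 there were 9, of which 6 were higher and 3 lower (10.9% and 5.45%, against 4.69% and 6.52% of all rows and 11% and 11.8% of the rows with a mean of at least 8), and limma with array weights called 1, *RPL41*. The largest change and the smallest adjusted p were those of *RPL41*, 0.34 (adjusted p = 0.159, limma). The change was above zero in 45 of the 55 genes (81.8%, against 42.2% of all rows and 50.9% of the rows with a mean of at least 8), and the *ELOVL5* arrays lay entirely above the control arrays in 13 genes (23.6%, against 7.88% and 15.4%) and entirely below in 2, *RPS16* and *RPS27L* (3.64%, against 11.7% and 15.9%). The median change was 0.08 and fell to 0.03 when LUC replicate 2 was left out. *RPS16*, *RPS27L* and *RPS28* were the 3 lower genes at an unadjusted p under 0.05, with changes of −0.24, −0.30 and −0.25.

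Compared directly, the *IGFBP6* culture was higher than the *ELOVL5* culture in 17 of the 55 genes (30.9%, against 8.09% of all rows and 19.1% of the rows with a mean of at least 8) and lower in 2 (3.64%, against 7.13% and 19.7%). All 17 had also risen against control cells, a comparison that shares the *IGFBP6* arrays. The largest differences were 1.17 for *RPL22L1* (adjusted p = 0.00169, limma), 0.79 for *RPL37A* (adjusted p = 1.73e-04, limma) and 0.65 for *RPL27* (adjusted p = 0.00167, limma). The lower genes were *RPS4X* (−0.41, adjusted p = 0.0109, limma) and *RPL6* (−0.34, adjusted p = 0.0336, limma). *RPS4X* lost its call without *ELOVL5* replicate 3 (adjusted p = 0.0601, limma), and *RPL6* lost it without any one of 4 arrays, *ELOVL5* replicates 1, 2 and 3 and *IGFBP6* replicate 3 (adjusted p of 0.0766 to 0.118, limma). At least 1.5 times was reached by 4 genes upwards and by 0 downwards (7.27% and 0%, against 4.74% and 4.36% of all rows and 12.1% and 13.2% of the rows with a mean of at least 8). Without *ELOVL5* replicate 3 the counts were 9 higher and 0 lower, and without *IGFBP6* replicate 2 they were 11 and 3.

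The genes were also split by level after knockdown of *IGFBP6*. Of the 21 genes with a mean log2 intensity under 10, 8 rose and 1 fell (38.1% and 4.76%, against 7.58% and 7.24% of all rows under 10). Those rows number 61640, while only 11665 rows of any level have a mean of at least 8, as 48 of the 55 genes do. The background under 10 is thus mostly of rows dimmer than most of these genes, and the 2 are not matched in level. Between 10 and 13, 9 of 18 rose and 1 fell (50% and 5.56%, against 23.2% and 24.1%). At 13 or above 3 of 16 rose, a share near that of all rows there, and 2 fell (18.8% and 12.5%, against 18.7% and 18.9%). Over the 55 genes, which share the same 9 arrays, Pearson's r between the mean level and the change was −0.21 and Spearman's rho was −0.18, given as a description.

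The ribosomal protein genes were also set against the genes around them in the genome. For each gene the median change of the 40 nearest expressed protein-coding genes on its chromosome was taken, and after knockdown of *IGFBP6* these medians ran from −0.945 around *RPL6* to 0.68 around *RPL37A*. Across the 55 genes, some of which share neighbours, Pearson's r between a gene's change and that of its neighbours was 0.53 and Spearman's rho was 0.58, given as a description. The median neighbour changes were 0.64 around *RPL38*, *RPS25* and *RPL24*, 0.54 around *RPS24* and 0.38 around *RPS27*. They were −0.56 around *RPS28* and −0.35 around *RPS4X*, close to the −0.59 and −0.36 of the genes themselves. Why neighbouring genes shifted was not tested.

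When the neighbours' median was subtracted on each array and limma was run again, 14 of the 20 genes that rose still passed, and *RPL37A*, *RPL11*, *RPS24*, *RPL38*, *RPS25* and *RPS27* did not. Of the 4 that fell, *RPS27L* still passed (difference from neighbours −0.63, adjusted p = 0.00533, limma), and *RPS28*, *RPS4X* and *RPS16* did not (−0.03, −0.02 and −0.12). *RPL22L1* stood 1.375 above its neighbours, *RPS14* 0.81 and *RPS21* 0.72. *RPL6*, whose own change of −0.24 had not passed, stood 0.705 above its neighbours (adjusted p = 2.36e-04, limma), and *RPL18* differed from its neighbours by −0.51 (adjusted p = 0.00547, limma). In all, 22 genes were above and 3 below their neighbours at this threshold, and the median difference was 0.25. The share that passed among all 20254 genes with neighbours is not given for this fit. These counts therefore stand without a background and are only a description.

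**Figure D4:**
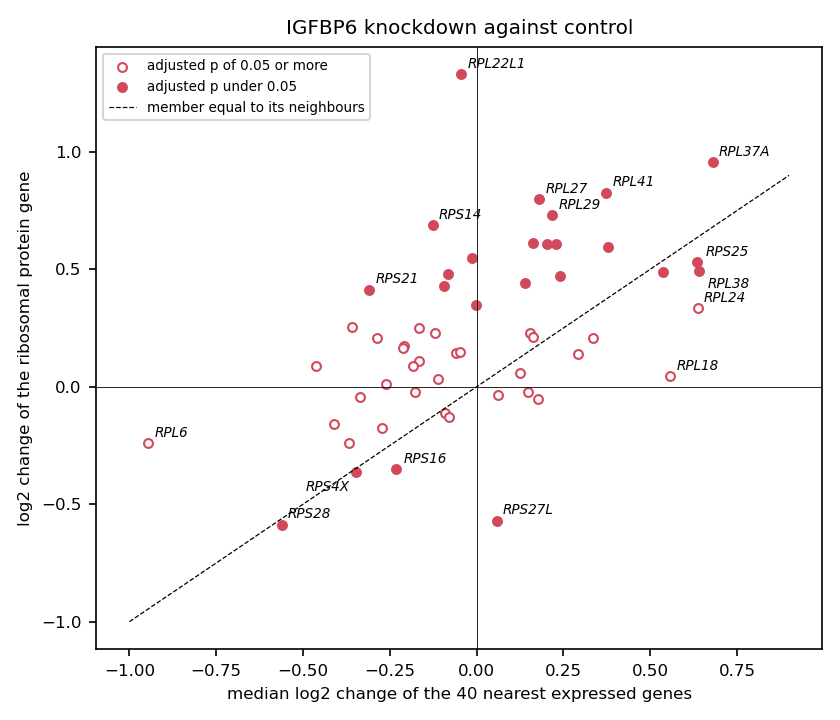
Log2 change of each of the 55 ribosomal protein genes after knockdown of *IGFBP6* against control cells (vertical axis) and the median log2 change of the 40 nearest expressed protein-coding genes (horizontal axis). Filled points passed the test, and the dashed line marks equal change. *RPS28*, *RPS4X*, *RPS25*, *RPS24* and *RPL38* lie near the line, *RPL22L1*, *RPS14* and *RPS21* well above it, and *RPS27L* below it.

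The start-site run of C and T was present in 16 of the 17 genes with a promoter entry that rose after knockdown of *IGFBP6* (94.1%), in 1 of the 4 that fell (25%) and in 18 of the 27 that did not pass (66.7%). *RPL27* is the gene among the 17 without the run, and *RPS16* is the one of the 4 lower genes that has it. Only 4 genes fell, and no difference between these groups was tested. Motifs of the kind that ETS factors bind (CCGGAAG, or CTTCCGG on the other strand) were sought within the 300 bases around the start. They were found in 33.3% of the 48 genes, against 12.2% of the 27305 genes in the promoter table. Motifs of the kind that YY1 binds (AAGATGGC, or GCCATCTT on the other strand) were found in 12.5%, against 3.52%. A gene counted when any of its promoter entries matched. By call, the ETS motif was in 35.3% of the genes that rose, 50% that fell and 29.6% that did not pass. For YY1 these shares were 17.6%, 25% and 7.41%. Neither motif contains the other, and a match is only a match of letters.

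Other genes of ribosome production were read from lists of their known members, whose shares stand against 8.85% of all rows that rose and 8.6% that fell, and 21.2% and 22.9% of the rows with a mean of at least 8. After knockdown of *IGFBP6* the nucleolar factors that assemble the subunits rose more often than they fell, with 19 up, 2 down and 18 not passing of 39 measured (48.7% and 5.13%, median change 0.43). *RRP12*, needed for export of the precursor subunits, rose by 1.75 and *HEATR1*, a part of the small subunit processome, by 1.44. *DDX21*, a nucleolar RNA helicase, rose by 1.16. *SBDS*, which frees the 60S subunit for translation, fell by 0.99 on the log2 scale, and *FBL*, the methyltransferase of ribosomal RNA, fell by 0.58.

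Of 14 genes of RNA polymerase I and its factors, which transcribe ribosomal RNA, 5 rose (35.7%) and none fell. *POLR1B*, the second-largest subunit, had intensities of 9.10, 8.80 and 9.22 in control cells and 10.69, 10.98 and 10.81 in the *IGFBP6* culture. It rose 3.45 times without overlap (adjusted p = 4.46e-06, limma), and *TAF1A*, a subunit of its promoter factor, rose by 1.48. Of 15 chaperones and importers of ribosomal proteins 6 rose and 5 fell (40% and 33.3%). *PDCD2*, a chaperone of a 40S protein, rose by 1.63, and *BCCIP*, a chaperone of a 60S protein, fell by 1.39 on the log2 scale.

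Of 13 other mRNAs with a known 5′ TOP, mostly of translation factors, 4 rose and 2 fell (30.8% and 15.4%). *EIF4B*, a cofactor of the initiation helicase, rose by 0.94 (adjusted p = 3.06e-05, limma), and *EEF2*, the elongation factor of translocation, fell by 0.49 on the log2 scale (adjusted p = 0.00519, limma). Of 16 genes of the mTOR pathway to these mRNAs 5 rose and 3 fell (31.2% and 18.8%). *RHEB*, the GTPase that activates mTOR, fell by 1.14 on the log2 scale, and *EIF4EBP1*, a repressor of cap binding, rose by 0.43. These 2 genes do not stand for the list. Of its 5 rises 4 reached 1.5 times, *EIF4EBP1* not among them, and of its 3 falls 1 did. The median change of the 16 genes was −0.02. Of 10 genes of the MYC network 3 rose and 1 fell (30% and 10%), the latter *MYC* itself, with 9.96, 9.43 and 9.97 in control cells and 8.58, 8.63 and 8.37 in the *IGFBP6* culture (−1.26, adjusted p = 2.17e-04, limma). Of the 3 rises 2 reached 1.5 times, and the median change of the 10 genes was 0.35.

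The mitochondrial ribosomal proteins, which share no gene with the cytosolic ones, had 31 up, 5 down and 38 not passing of 74 (41.9% and 6.76%, median change 0.25). *MRPS21* had intensities of 8.29, 8.18 and 8.65 in control cells and 10.20, 10.32 and 10.12 in the *IGFBP6* culture, a rise of 1.84 (adjusted p = 5.01e-06, limma). Of 13 host genes of small nucleolar RNAs listed, 2 were measured and *SNHG8* rose by 0.70. *RPL36AL*, a ribosomal protein gene that the symbol rule did not take, changed by 0.16 (adjusted p = 0.283, limma). In each of these lists no gene rose or fell after knockdown of *ELOVL5* in the limma fit, with 11 of 74 mitochondrial ribosomal proteins and 9 of 39 nucleolar factors at an unadjusted p under 0.05 and 0 to 2 genes in each other list. Those counts join both directions. At that threshold 4.69% of all rows were higher and 6.52% lower, and 11% and 11.8% of the rows with a mean of at least 8. The counts of the lists thus lie near or below the share of these brighter rows.

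**Figure D5:**
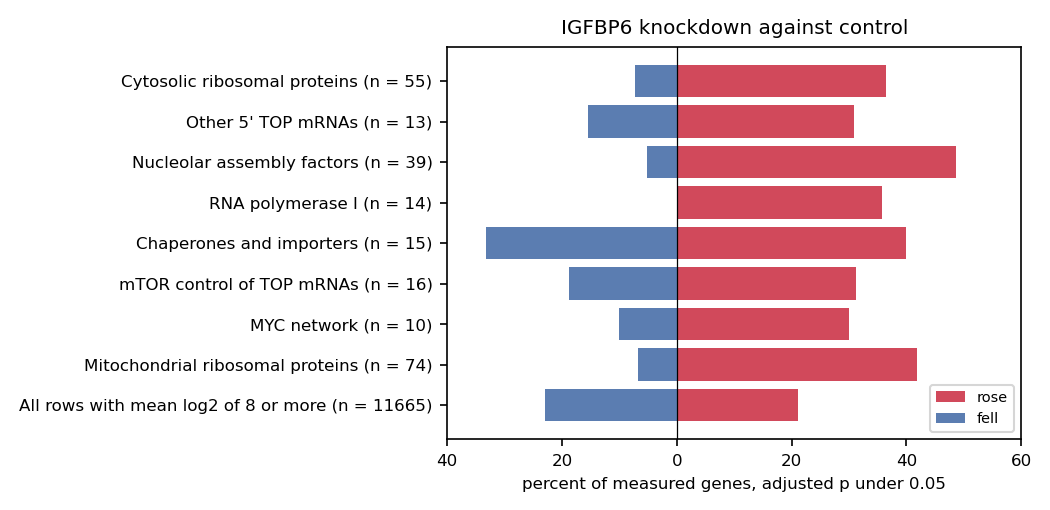
Percent of measured genes that fell (left of zero) and rose (right of zero) after knockdown of *IGFBP6* against control cells, at an adjusted p under 0.05, for the cytosolic ribosomal proteins, for 7 lists of related genes and for all rows with a mean log2 intensity of at least 8. The cytosolic ribosomal proteins stand at 36.4% up and 7.27% down, the nucleolar assembly factors at 48.7% and 5.13%, the mitochondrial ribosomal proteins at 41.9% and 6.76%, and all rows of that level at 21.2% and 22.9%.

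Ribosomal protein mRNAs have many processed pseudogene copies in the genome, and probes of a row may also bind transcripts of such copies; their share in these intensities was not tested.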

How the data were processed

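Total RNA of 9 MDA-MB-231 samples (3 LUC, 3 ELOVL5, 3 IGFBP6) was labelled and hybridised to Human Transcriptome Arrays. For each transcript cluster the authors deposited a log2 intensity. Per the submitters' processing notes, these come from RMA and the Transcriptome Analysis Console (version 4.0.0.25); the RMA options are not given in the sources used here. The table holds 67528 rows from 2.28 to 19.29, of which 0.301% of values exceed 16. Symbols came from the platform annotation, with 23781 rows naming 1 gene, 1543 several and 42204 none; 20295 genes matched RefSeq by ID and 0 symbols differed. The label of the RNA extraction speaks of tumor tissue, while all other labels name the cell line.

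All 9 arrays were fitted in R 4.3.3 with limma 3.58.1 (lmFit and eBayes, no covariate, 6 residual degrees of freedom, prior of 4.04). The Benjamini-Hochberg adjustment ran over all 67528 rows. The fit was also run on simulated data with known changes. How many of those it recovered is not given here, so that run says nothing about the calls. Single differences between 2 genes were tested by exact permutation of arrays (SciPy 1.17.1). Members and lists were chosen with earlier results of these data known. Genes named were those with the 5 largest rises and falls and those past 1.5 times in each comparison, the paralogs with their parents and proteins of known special role; all others named were chosen after their values were seen. The neighbour medians used 9258 protein-coding genes with a mean of at least 6. Alternatives covered scaling, array weights, filters, thresholds, paired replicate numbers, neighbours and single arrays left out. Within a group arrays correlated at 0.9901 to 0.9976, and 0 pairs were identical. Of 3 arrays per group, the number limits the precision.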

Additional observations from a re-analysis of the deposited data

Results flagged for a closer look

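The difference between the knockdowns themselves (*IGFBP6* culture minus *ELOVL5* culture, log2, limma over all 9 arrays) passed an adjusted p under 0.05 in 19 of the 55 ribosomal protein genes, with adjusted p from 1.73e-04 to 0.0473. Higher in the *IGFBP6* culture were 17 genes (30.9%), and lower were 2 (3.64%). Among the rows with a mean of at least 8, 19.1% were higher and 19.7% lower, and among all rows 8.09% and 7.13%. Of the 19 genes, 18 were also called against control cells, in a comparison that shares the *IGFBP6* arrays. In the 60S subunit the differences were 1.17 for *RPL22L1*, 0.79 for *RPL37A*, 0.65 for *RPL27*, 0.63 for *RPL29*, 0.49 for *RPL41*, 0.48 for *RPL39L*, 0.45 for *RPL38*, 0.42 for *RPL11*, 0.38 for *RPL7* and −0.34 for *RPL6*. In the 40S subunit they were 0.55 for *RPS12*, 0.50 for *RPS14*, 0.44 for *RPS25*, 0.42 for *RPS24*, 0.40 for *RPS27*, 0.38 for *RPS7*, 0.36 for *RPS15A*, 0.28 for *RPS3* and −0.41 for *RPS4X*. Leaving out at least 1 array ended the call for *RPL39L*, *RPL6*, *RPL7*, *RPS14*, *RPS15A*, *RPS25*, *RPS27*, *RPS3*, *RPS4X* and *RPS7*, for *RPS3* with each of the 9 arrays.

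With 3 arrays per group, no single array was tested for standing apart from its group.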

How the results depend on the processing

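Requiring a change of at least 1.5 times left 10 rises and 1 fall after knockdown of *IGFBP6*, and 4 higher and 0 lower genes in the *IGFBP6* against the *ELOVL5* culture. An adjusted p under 0.01 left 2 falls in the first comparison, and 10 higher and 0 lower genes in the second. Fitting only the 2 groups compared left 2 falls and 1 lower gene, respectively. Array weights gave 1 rise after knockdown of *ELOVL5* and 5 lower genes between knockdowns. With neighbours subtracted, 11 genes were higher between knockdowns, a count without a background share. The replicate numbers gave deviation correlations of −0.0564 to 0.333 over 9 pairs of arrays and are not known to pair the samples; with the replicate block 1 gene was lower between knockdowns, 16 were higher, and the counts against control were 20 and 4 after knockdown of *IGFBP6* and 0 after that of *ELOVL5*.

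Leaving out single arrays gave 17 to 20 rises and 2 to 4 falls after knockdown of *IGFBP6* (2 without *IGFBP6* replicate 3 or LUC replicate 1), 0 to 0 after knockdown of *ELOVL5*, and 9 to 18 higher and 0 to 3 lower genes between knockdowns (1 lower without *ELOVL5* replicate 1 or 2 or *IGFBP6* replicate 3). The median changes ran from 0.11 to 0.26, 0.03 to 0.11 and 0.05 to 0.17.

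Among values that passed the test with or without the alternative, the sign turned in 12, all with neighbours subtracted. There the value is the change of the gene minus that of its neighbours, and the change of the gene itself did not turn. For the *IGFBP6* culture against control these differences from neighbours were −0.51 for *RPL18*, −0.30 for *RPL24*, −0.15 for *RPL38*, −0.05 for *RPS24*, −0.105 for *RPS25* and 0.705 for *RPL6*. Between knockdowns they were −0.0083 for *RPL11*, −0.46 for *RPL18*, 0.34 for *RPL22*, −0.54 for *RPL24*, −0.025 for *RPL38* and 0.43 for *RPL6*. Neighbours and the required size of change apart, 17 of the 20 rises (not *RPL35A*, *RPL39L* and *RPL7*) kept their call under every alternative run. So did 2 of the 4 falls (not *RPS16* and *RPS4X*). Fewer rises and falls met the required size of change, as given above, and *RPS28* was the only fall that did. The cause of the changes was not tested. Other scalings moved the median of all rows by at most 0.035. Levels near the median of all values, 5.02, limit what *RPL3L* and *RPL10L* can show.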
